A study of Mus musculus with 20 samples.

Results

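Treadmill training over 6 weeks was compared with no training in hindlimb muscle of mice given vehicle, the groups that are not labelled as knockouts of the clock gene Bmal1. The comparison was made by the label of each library, with 5 libraries named Vehicle Exercise Trained against 5 named Vehicle Control, so that it rests on 10 of the 20 libraries of the series. It is described across the 14359 of 21844 genes that passed a filter on low counts. Trained library 2 stands far from the other 4 of its group, so the main gene lists are given with and without it, and any other value, unless it says otherwise, is without it.

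RNA was measured by sequencing in 4 groups of 5 libraries, vehicle or muscle Bmal1 knockout, sedentary or trained. All mice, the vehicle groups included, carried the genotype written Cre+:iMSBmal1 fl/fl, a floxed Bmal1 gene with a muscle-specific Cre recombinase that is inducible, so both groups compared here carry the Cre and the floxed alleles. Sample source and series design name the gastrocnemius, another label names the tibialis anterior, and collection was 48 hours post per the labels and 47 hours after the last bout per the series design. Age and sex are not given in the labels used here, and nothing in them says that each library is a separate animal, so that p-values measure the spread between these libraries.

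Skeletal muscle burns fatty acids and glucose in mitochondria. Repeated endurance exercise is known to raise mitochondrial content, capillary supply and the capacity to oxidise fat, and to move fibres towards slower, more oxidative types, in part through the coactivator PGC-1α and the nuclear receptors of the ERR and PPAR families. BMAL1, the partner of CLOCK, drives the molecular clock of muscle fibres, and many metabolic genes of muscle follow its daily rhythm.

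The column sums of the deposited estimated counts ranged from 12929215 to 19153527 over the sedentary libraries and from 13905274 to 17564810 over the trained ones, with 15137967 in trained library 2. Levels are given as CPM, which scales each count by the library's column sum. Defining genes of skeletal muscle, among them Acta1, Ckm and Myh4, were abundant in every library, and the summed level of 8 muscle fibre markers was 65570.0 to 75843 CPM in sedentary libraries, 61985 to 71169 CPM in trained libraries 1, 3, 4 and 5 and 41995 CPM in library 2. Arntl, the name of Bmal1 in the table, measured 6.79 ± 0.89 CPM (SD, n = 5) in sedentary vehicle libraries. It was higher in those labelled knockout sedentary, at 13.2 ± 3.28 CPM (SD, n = 5), so gene-level counts do not show a loss of its transcript. Counts per gene cannot show whether the floxed part is missing, which was not tested. The libraries with a knockout label are called labelled knockout here, and directions that involve them are drawn from the labels. The expression of 4354 genes in library 2 lay over 2-fold from the mean of the other 4 trained libraries. For sedentary libraries, each against the other 4 of its group, the number was 58 to 285. For trained libraries 1, 3, 4 and 5 it was 398 to 748, against a mean that includes library 2.

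No gene passed the test for training in vehicle muscle, with or without library 2. Without library 2, each of 26 genes of fatty acid uptake and oxidation had a negative log2 difference and each of 28 collagen and matrix genes a positive one, while the medians of glycolytic and fast contractile genes were near 0. With all 5 trained libraries, 0 of 14359 genes had an adjusted p under 0.05 (edgeR quasi-likelihood test, Benjamini-Hochberg adjustment, percent called 0.0), the smallest adjusted p was 0.272, and 2186 genes had an unadjusted p under 0.05. Without library 2, the count was again 0, the smallest adjusted p was 0.0612 and 1869 genes had an unadjusted p under 0.05, which was 8.06% of tested genes in the higher direction and 4.95% in the lower. For the 138 genes followed by name, the adjusted p lay between 0.0612 and 0.986 without library 2 and between 0.272 and 0.978 with it, and 25 of them had log2 differences of opposite sign with and without it. DESeq2 called 0 genes with library 2 and 22 without it, 10 higher and 12 lower. Among the 10303 genes at 5 CPM or more in sedentary muscle, the median half-width of the 95% interval of a log2 difference was 0.34 with library 2 and 0.26 without it, and 94.6% of those genes had an interval that lay within 1 log2 unit of 0 without it.

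A second description used the values themselves and counted genes whose trained and sedentary libraries did not overlap. On CPM, without library 2, 80 genes (0.557%) were higher and 625 (4.35%) lower in every trained library than in every sedentary one, and with library 2 these counts were 36 (0.251%) and 392 (2.73%). The balance depended on scaling. After TMM scaling, which sets libraries level on the bulk of genes, 245 genes (1.71%) were higher and 238 (1.66%) lower without library 2, and 115 (0.801%) and 159 (1.11%) with it, so the excess of lower genes on CPM is not read as a result. The counts also depended on single libraries: with library 2 out, 793 genes were higher and 936 lower without trained library 3, and 115 and 1208 without trained library 4. The median log2 difference over all tested genes was 0.03 with library 2 and -0.003 without it.

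**Figure D1:**
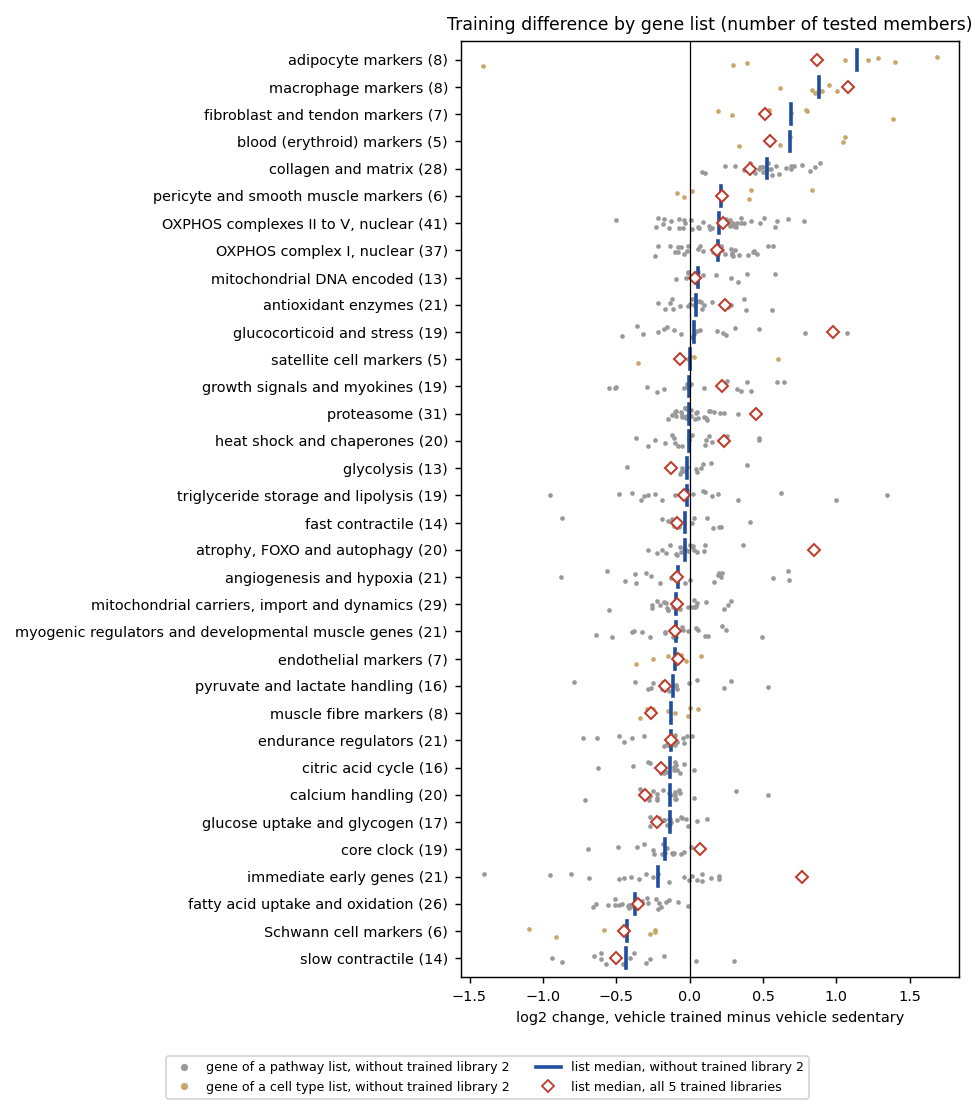
Log2 difference between trained and sedentary vehicle muscle (horizontal axis, edgeR, TMM scaling) for each tested gene of each list with at least 4 tested members. Dots are genes and blue bars list medians without trained library 2, and open diamonds are list medians with all 5 trained libraries. Fatty acid uptake and oxidation has its median at -0.37 and collagen and matrix at 0.53 without library 2, while the diamonds of the atrophy, glucocorticoid and immediate early lists lie at 0.84, 0.98 and 0.77, away from their bars.

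Genes of fatty acid uptake and oxidation measured lower in trained vehicle muscle. All 26 members were tested and all 26 had a negative log2 difference when library 2 was left out, with a median log2 difference of -0.37 against -0.003 over all genes. In 20 of the 26 the unadjusted p was under 0.05, where 4.95% of all genes were lower at that level, and 0 passed after adjustment. In 15 of the 26 (57.7%) no trained value reached the lowest sedentary value on CPM, where the percent called was 4.35, and after TMM scaling this held for 5 of the 26, where it was 1.66. With all 5 trained libraries 24 of the 26 had a negative difference, the median was -0.35, 16 had an unadjusted p under 0.05 in the lower direction, where 4.75% of all genes did, and 12 of the 26 did not overlap on CPM (6 after TMM scaling). Leaving out each library in turn, with library 2 out, moved the median between -0.48 and -0.27. Without trained library 1 as well, 23 did not overlap on CPM, the largest such count, where 6.1% of all genes were lower without overlap. Library 1 was the highest trained library on this list, with a mean log2(CPM + 0.5) of 6.92 against 6.84, 6.58 and 6.66 in libraries 3, 4 and 5. Leaving it out favours lower counts here, so that share is not a like comparison. The differences ran from -0.66 for Fabp3, a cytoplasmic fatty acid carrier, to -0.01 for Ucp3, an uncoupling protein of the inner mitochondrial membrane, both named after their values were seen. Most of these genes are expressed in fibres, and the median of the 8 muscle fibre markers was -0.12 without library 2, with 6 of 8 negative and summed levels as given above. The part of this in the fatty acid values was not tested.

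Uptake at the cell surface is represented by Cd36 and Slc27a1. Cd36, the main fatty acid translocase of muscle, measured 319, 356, 352, 344 and 284 CPM in sedentary libraries 1 to 5 and 285, 259, 217 and 240.1 CPM in trained libraries 1, 3, 4 and 5, with 229 CPM in library 2. Trained library 1 lay just above the lowest sedentary library, and after TMM scaling all 5 trained libraries lay below all sedentary ones. The log2 difference was -0.36 (SE 0.10) without library 2. Slc27a1, which encodes the transporter FATP1, measured 87.4, 111, 93.1, 83.9 and 104 CPM in sedentary libraries and 70.6, 71.6, 61.5 and 59.7 CPM in trained libraries 1, 3, 4 and 5, with 35.6 CPM in library 2. Its groups did not overlap on CPM or after TMM scaling, with a log2 difference of -0.51 with SE 0.14 without library 2 (edgeR adjusted p = 0.343) and of -0.64 with SE 0.17 with it.

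Entry into mitochondria is controlled by Cpt1b, the muscle form of carnitine palmitoyltransferase 1, and completed by Cpt2. Cpt1b (ENSMUSG00000078937) measured 308, 305, 255, 258 and 268 CPM in sedentary libraries and 192, 237, 195 and 188 CPM in trained libraries 1, 3, 4 and 5, with 110.4 CPM in library 2. Every trained library was below every sedentary one on CPM, though not after TMM scaling, and the means without library 2 were 279 ± 25.5 CPM (SD, n = 5) and 203 ± 22.8 CPM (SD, n = 4). This gave a log2 difference of -0.42 with SE 0.13 without library 2 (edgeR adjusted p = 0.343) and of -0.56 with SE 0.16 with it. Cpt2 stood at 65.2, 72.5, 56.96, 51.2 and 54.01 CPM in sedentary libraries and at 43.9, 47.1, 41.96 and 42.4 CPM in trained libraries 1, 3, 4 and 5, with 24.6 CPM in library 2. The trained libraries were again all lower on CPM but overlapped after TMM scaling, and the log2 difference was -0.42 (SE 0.11) without library 2.

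Inside mitochondria, Acadvl encodes the dehydrogenase that opens the oxidation of long chains, and Hadha and Hadhb encode the trifunctional protein that carries out the next steps. Hadhb (ENSMUSG00000059447) measured 154, 172, 137, 128 and 139 CPM in sedentary libraries and 104, 118, 80.6 and 95.7 CPM in trained libraries 1, 3, 4 and 5, with 79.5 CPM in library 2. All trained values were below all sedentary values on CPM, library 2 was the lowest of the 10, and the groups overlapped after TMM scaling. The means were 146 ± 17.2 CPM (SD, n = 5) sedentary and 99.7 ± 15.8 CPM (SD, n = 4) trained without library 2, which corresponds to a log2 difference of -0.51 with SE 0.14 without library 2 (edgeR adjusted p = 0.343) and of -0.56 with SE 0.14 with it. Hadha, named after its value was seen, had a log2 difference of -0.48 (SE 0.15). Acadvl overlapped between the groups, at 257 ± 31.9 CPM (SD, n = 5) and 199 ± 27.8 CPM (SD, n = 4), with a log2 difference of -0.33 (SE 0.15). Acadm, the medium-chain dehydrogenase, and Acot2, a mitochondrial thioesterase that releases fatty acids from coenzyme A, were also singled out after their values were seen. All 5 trained libraries were below all sedentary ones under both scalings in these genes, with log2 differences of -0.37 (SE 0.11) and -0.64 (SE 0.18).

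Genes next to this pathway were among those with the smallest p of all lower genes. Plin5, which coats lipid droplets that lie against mitochondria, measured 17.02, 21.2, 15.6, 14.7 and 18.7 CPM in sedentary libraries and 10.1, 10.5, 5.92 and 8.73 CPM in trained libraries 1, 3, 4 and 5, with 13.1 CPM in library 2. The trained libraries were all lower on CPM, and after TMM scaling all but library 2 were, with a log2 difference of -0.95 with SE 0.20 without library 2 (edgeR adjusted p = 0.273) and of -0.79 with SE 0.21 with it. Hsdl2, a peroxisomal protein of the hydroxysteroid dehydrogenase family, and Slc25a34, a mitochondrial carrier, had log2 differences of -0.47 (SE 0.10) and -1.03 (SE 0.22) without library 2. Library 2 did not share the difference of Slc25a34, with 15.9 CPM against 13.7 ± 1.97 CPM (SD, n = 5) in sedentary libraries. Of the other 18 genes on the triglyceride list, Pnpla2, the first lipase of triglyceride breakdown, was at -0.24 (SE 0.10) without library 2 but at 0.50 with it, since library 2 measured 637 CPM against 155 CPM on average in the other 4.

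**Figure D2:**
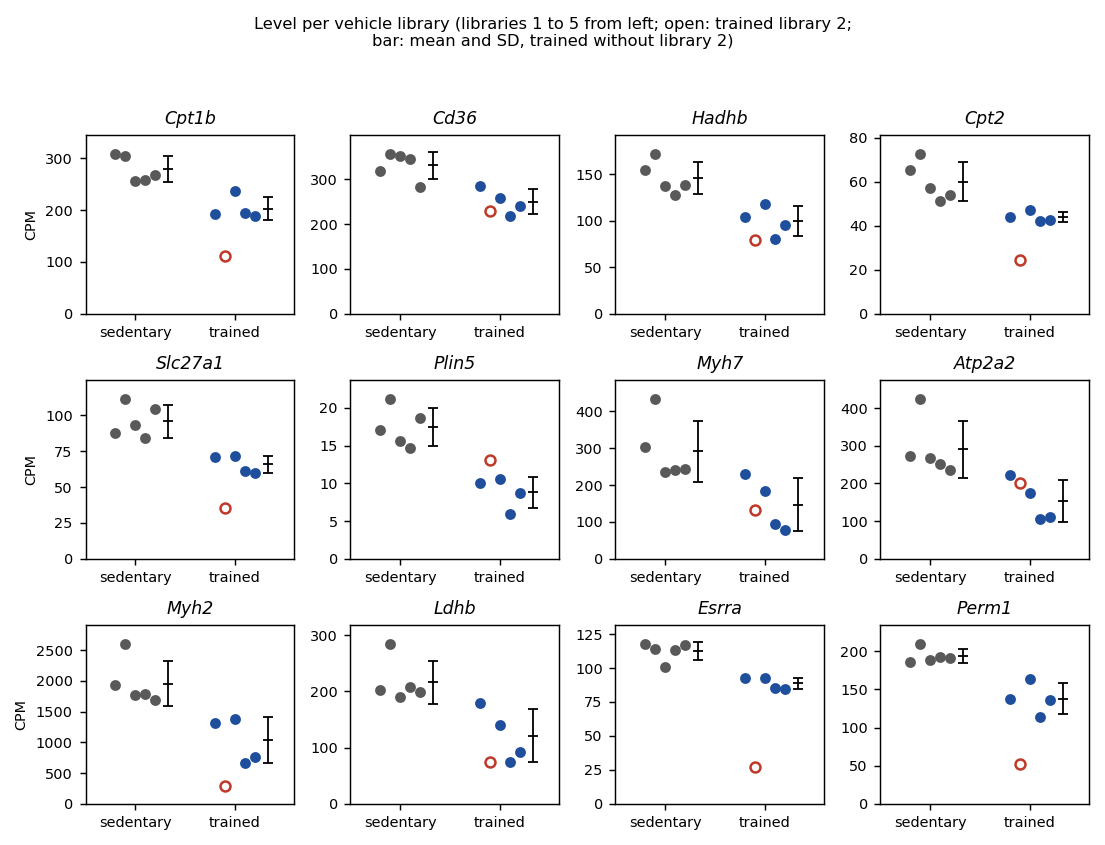
Level of 12 genes in CPM (vertical axes, from 0) in each of the 10 vehicle libraries, sedentary on the left and trained on the right, libraries 1 to 5 from left to right within a group. The open circle is trained library 2 and the bars are the mean and SD without it. In Cpt1b the filled trained circles lie between 188 and 237 CPM, below all sedentary circles, and in Myh7 and Atp2a2 trained libraries 4 and 5 lie lowest.

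Slow contractile genes also had lower values in trained vehicle muscle, but trained library 1 did not share this. Of 14 tested genes, 12 had a negative log2 difference without library 2 and the median was -0.43, with 4 at an unadjusted p under 0.05, all lower, where 4.95% of all genes were. In 3 the groups did not overlap on CPM, where 4.35% of all genes were lower without overlap, and in 1 after TMM scaling, where 1.66% were. With library 2, 13 were negative and the median was -0.50. Of the 14, 6 were lower and 1 higher at an unadjusted p under 0.05, where 4.75% and 10.5% of all genes were. By library, the mean of log2(CPM + 0.5) over the list was 5.93 to 6.54 in sedentary libraries, 6.62 in trained library 1, 5.66 in library 3, 4.96 in library 4 and 5.19 in library 5, with 5.58 in library 2. Trained library 1 was thus above every sedentary library and the other 4 below every sedentary one. Leaving out each library in turn with library 2 out moved the list median between -0.99 and -0.20, the former without trained library 1. Without libraries 1 and 2, all 14 genes had a negative difference, 13 of them at an unadjusted p under 0.05, where 3.45% of all genes were lower at that level, and 0 after adjustment. In 12 the groups did not overlap on CPM, where the share of all genes was 6.1%. Library 1 is the one trained library above the sedentary range on this same list. Leaving it out favours lower counts here, so the shares of all genes are not a like comparison and these counts are a description.

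Myh7 (ENSMUSG00000053093), the slow myosin heavy chain of type I fibres, measured 302, 433, 236, 241 and 245 CPM in sedentary libraries and 231, 185, 93.8 and 78.5 CPM in trained libraries 1, 3, 4 and 5, with 133 CPM in library 2. Trained libraries were all lower on CPM, library 1 only just so, and overlapped after TMM scaling, with a log2 difference of -0.94 with SE 0.34 without library 2 (edgeR adjusted p = 0.358) and of -0.96 with SE 0.33 with it. Atp2a2, the slow-fibre calcium pump SERCA2, measured 273, 424, 267, 252 and 236 CPM in sedentary libraries and 223, 175, 106 and 112 CPM in trained libraries 1, 3, 4 and 5, with 201 CPM in library 2. It did not overlap under either scaling, and its log2 difference was -0.87 (SE 0.25) without library 2. Mybpc1, the slow myosin binding protein, was at 757 ± 109.9 CPM (SD, n = 5) and 492 ± 165 CPM (SD, n = 4). Against these, Myl2, the slow regulatory light chain, measured 357, 90.3, 60.5 and 84.01 CPM in trained libraries 1, 3, 4 and 5, and 134, 184, 159.8, 161 and 98.7 CPM in sedentary libraries. Library 1 was the highest of all 10 and libraries 3, 4 and 5 were below every sedentary value, so that the log2 difference was 0.04 with SE 0.39, and -0.02 with library 2. The slow troponin T gene Tnnt1 was likewise at 84.6, 41.7, 20.1 and 23.5 CPM in trained libraries 1, 3, 4 and 5 against 69.5, 92.7, 60.5, 56.1 and 63.7 CPM in sedentary ones, with library 1 inside the sedentary range and libraries 3, 4 and 5 below it.

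The fast contractile list had a median log2 difference of -0.03 over 14 genes without library 2 and -0.09 with it. Myh4 and Myh1, the myosin heavy chains of type IIB and IIX fibres, had log2 differences of -0.15 (SE 0.17) and -0.12 (SE 0.24) without library 2. Myh2, the myosin heavy chain of the more oxidative IIA fibres, stood out from them. It measured 1935, 2598, 1769.8, 1785 and 1694 CPM in sedentary libraries and 1321, 1385, 668 and 763 CPM in trained libraries 1, 3, 4 and 5, with 296 CPM in library 2. All trained libraries were below all sedentary ones under both scalings, with a log2 difference of -0.87 with SE 0.26 without library 2 (edgeR adjusted p = 0.343) and of -1.09 with SE 0.32 with it. An antisense transcript that overlaps Myh2 is annotated, and strandedness of the counting is not given in the sources used here, so this count is uncertain to that degree.

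Mitochondrial energy genes did not share one direction. Of 16 citric acid cycle genes, 15 had a negative log2 difference without library 2 with a median of -0.13. Of the 16, 3 were lower at an unadjusted p under 0.05 (4.95% of all genes), and 4 did not overlap on CPM (4.35% of all genes), 1 of them, Idh2, also after TMM scaling (1.66%). With library 2 the median was -0.20, 15 were negative and 4 were lower at an unadjusted p under 0.05 (4.75% of all genes). Idh2, the NADP-dependent isocitrate dehydrogenase of mitochondria, was at 269 ± 46.4 CPM (SD, n = 5) in sedentary and 168 ± 43.6 CPM (SD, n = 4) in trained libraries without library 2, a log2 difference of -0.63 (SE 0.20). Ogdh, a subunit of the oxoglutarate dehydrogenase complex, was at -0.38 (SE 0.13), and citrate synthase Cs, often used as a gauge of mitochondrial content, at -0.18 (SE 0.12).

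Nuclear genes of the respiratory chain leaned the other way, with list medians of 0.20 for 37 complex I genes, 7 of them higher at an unadjusted p under 0.05 where 8.06% of all genes were, and 0.20 for 41 genes of complexes II to V, 10 higher and 1 lower. With library 2 the medians were 0.18 and 0.23. The medians without it rested on trained library 1. Its mean log2(CPM + 0.5) over the complex I genes was 7.59, against 6.97 to 7.15 in libraries 3, 4 and 5 and 6.90 to 7.23 in sedentary libraries, and without libraries 1 and 2 the medians were 0.02 for both lists, with 0 and 1 genes at an unadjusted p under 0.05. Cox7b, a small subunit of complex IV, showed this, at 432, 498, 589.6, 611 and 361 CPM in sedentary libraries and 1079.6, 533, 659 and 664 CPM in trained libraries 1, 3, 4 and 5. Library 1 was far above the rest and library 3 lay inside the sedentary range, though no library overlapped after TMM scaling, with a log2 difference of 0.59 (SE 0.21). Atp5k, a subunit of ATP synthase, was at 0.67 (SE 0.23), while Ndufs1, the largest subunit of complex I, and Sdha, the flavoprotein of complex II, were at -0.24 and -0.18. The 13 protein-coding genes of mitochondrial DNA had a median of 0.06 without library 2 and 0.04 with it, with mt-Co1 at -0.01 (SE 0.15) and mt-Nd3 at 0.58 (SE 0.21). The mitochondrial ribosomal RNAs mt-Rnr1 and mt-Rnr2 were higher in every trained library than in every sedentary one, library 2 included, with log2 differences of 0.73 (SE 0.19) and 0.51 (SE 0.16) without it. How ribosomal RNA was removed is not given in the sources used here, so these counts are uncertain.

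Regulators of endurance metabolism had level or lower values in the trained libraries. Of 21 genes on the list, 20 had a negative log2 difference without library 2, the median was -0.13, 5 had an unadjusted p under 0.05, all lower, against 4.95% of all genes, and 2 did not overlap on CPM against 4.35%, or 1 after TMM scaling against 1.66%. With library 2 the median was -0.12 and 15 were negative. Of the 21, 4 were lower and 1 higher at an unadjusted p under 0.05, where 4.75% and 10.5% of all genes were. Esrra, which encodes the nuclear receptor ERRα, measured 118, 114, 101, 113 and 117 CPM in sedentary libraries and 92.3, 92.4, 85.1 and 84.9 CPM in trained libraries 1, 3, 4 and 5, with 27.3 CPM in library 2. Perm1, a muscle regulator that acts with ERR and PGC-1, measured 186, 209, 189, 192 and 192 CPM and 138, 164, 114 and 136 CPM in the same order, with 52.1 CPM in library 2. Every trained value of both genes was below every sedentary one on CPM, for Perm1 after TMM scaling as well, and the log2 differences without library 2 were -0.31 (SE 0.09) and -0.45 (SE 0.13).

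Ppargc1a, which encodes PGC-1α, overlapped between the groups without library 2, at 77.96, 83.1, 65.9, 60.1 and 80.8 CPM in sedentary libraries and 51.9, 75.1, 58.8 and 68.3 CPM in trained libraries 1, 3, 4 and 5. In library 2 alone it measured 556 CPM, and the log2 difference turned from -0.18 (SE 0.14) without that library to 1.23 with it. Ppara and Esrrg, receptors that act on fatty acid and mitochondrial genes, had log2 differences of -0.63 (SE 0.27) and -0.48 (SE 0.20), while Tfam, which packages and copies mitochondrial DNA, was at -0.04 with SE 0.10. Ppara and Tfam were named after their values were seen.

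Genes of blood supply and oxygen sensing gave no shared direction, with a median of -0.08 over 21 genes, 1 higher and 5 lower at an unadjusted p under 0.05, where 8.06% of all genes were higher and 4.95% lower. With library 2 the median was again -0.08, with 2 in each direction, where 10.5% of all genes were higher and 4.75% lower. Vegfa, the main signal for capillary growth, was at 399.9 ± 43.7 CPM (SD, n = 5) in sedentary and 325 ± 40.7 CPM (SD, n = 4) in trained libraries without library 2, a log2 difference of -0.26 (SE 0.17), and its receptor Kdr was at -0.36 (SE 0.15). Nos3, the endothelial nitric oxide synthase, was at -0.44 (SE 0.15). Egln3, a prolyl hydroxylase that marks HIF proteins for degradation, measured 45.9, 50.4, 47.9, 38.5 and 50.5 CPM in sedentary libraries and 33.4, 31.1, 14.97 and 19.2 CPM in trained libraries 1, 3, 4 and 5. It was lower in each of these 4 than in any sedentary library under both scalings, with a log2 difference of -0.88 (SE 0.21), but library 2 measured 341 CPM and with it the difference was 1.02. The endothelial markers had a median of -0.10 over 7 genes, 1 of them positive, and -0.08 with library 2, and their summed level was 169 to 248 CPM in sedentary libraries, 159.8 to 206 CPM in trained libraries 1, 3, 4 and 5 and 188 CPM in library 2.

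Handling of glucose was closer to level. The 17 genes of glucose uptake and glycogen had a median of -0.13, 15 negative and 0 at an unadjusted p under 0.05, and with library 2 a median of -0.22. The 13 glycolysis genes had a median of -0.02 without library 2 and -0.13 with it, and Pfkm, the muscle phosphofructokinase, was at -0.06 (SE 0.13) without library 2. Slc2a4, the insulin-responsive glucose transporter GLUT4, Hk2, the hexokinase that traps glucose in muscle, and Gys1, the muscle glycogen synthase, were at -0.17, -0.15 and -0.27, none of which had an unadjusted p under 0.05, and Hk2 was at 0.57 with library 2. The 16 genes of pyruvate and lactate handling had a median of -0.12 without library 2, with 12 negative, and of -0.17 with it. Without it, 4 of the 16 were lower at an unadjusted p under 0.05 (4.95% of all genes). On CPM 5 were lower without overlap (4.35%), and after TMM scaling 1 was (1.66%). Ldhb, the lactate dehydrogenase form of oxidative tissue, had the most negative difference of this list without library 2. It measured 202, 284, 190.3, 207 and 198 CPM in sedentary libraries and 179.5, 139.9, 73.6 and 92.6 CPM in trained libraries 1, 3, 4 and 5, with 74.9 CPM in library 2. The groups did not overlap under either scaling, with a log2 difference of -0.79 with SE 0.24 without library 2 (edgeR adjusted p = 0.343) and of -0.90 with SE 0.24 with it, whereas Ldha, the form of fast fibres, was at 0.05 with SE 0.10, at -0.16 with library 2, and is named after its value was seen. Pdk4, the kinase that shuts pyruvate out of the citric acid cycle, spread widely within each group, at 394, 326, 163, 139.8 and 336 CPM in sedentary and 244, 175, 270.4 and 200.5 CPM in trained libraries 1, 3, 4 and 5, and the groups overlapped.

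Collagen and matrix genes measured higher in trained vehicle muscle. Of 29 on the list, Timp1 did not pass the filter, and all of the 28 tested had a positive log2 difference with and without library 2. The median was 0.53 without library 2 and 0.41 with it. In 23 of the 28 the unadjusted p was under 0.05 without library 2, where 8.06% of all genes were higher at that level, and 0 passed after adjustment. With library 2 the count was 8, where 10.5% of all genes were higher at that level. In 0 of the 28 were the groups free of overlap. The mean of log2(CPM + 0.5) over the list was 4.68 to 5.55 in sedentary libraries, 6.00 and 5.90 in trained libraries 1 and 4, 5.30 and 5.38 in libraries 3 and 5, and 4.60 in library 2. Libraries 1 and 4 were thus above every sedentary library and library 2 below every one, and without libraries 1 and 2 the median was 0.45, with 11 of 28 higher and 1 lower at an unadjusted p under 0.05, against 2.95% and 3.45% of all genes. Col3a1, a fibrillar collagen of soft tissue, measured 70.5, 139.9, 99.6, 112 and 58.8 CPM in sedentary libraries and 199, 107, 233 and 128 CPM in trained libraries 1, 3, 4 and 5, with 16.5 CPM in library 2. Trained libraries 1 and 4 were above every sedentary library, libraries 3 and 5 lay within the sedentary range and library 2 was the lowest of all, so that the log2 difference was 0.82 (SE 0.24) without it and 0.53 with SE 0.41 with it. Col1a1, the main collagen of tendon and scar, was at 0.69 (SE 0.25), and Col4a1, a collagen of basement membranes, at 0.47 (SE 0.12). Tnc, a matrix protein of tendon junctions and regenerating muscle, and Fn1, fibronectin, were named after their values were seen and stood at 0.85 (SE 0.32) and 0.77 (SE 0.27).

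Markers of 4 other cell types measured higher beside the collagens, and those of endothelial and satellite cells did not. Without library 2 the median was 0.69 over 7 fibroblast and tendon markers, 0.88 over 8 macrophage markers, 1.14 over 8 adipocyte markers and 0.68 over 5 erythroid markers, with 7, 8, 7 and 5 of them positive. With library 2 these medians were 0.51, 1.08, 0.87 and 0.55, and without libraries 1 and 2 they were 0.43, 0.54, 0.17 and 0.21. The 6 pericyte and smooth muscle markers had a median of 0.21 with 4 positive, and 2 of 5 satellite cell markers were positive, both without library 2. Summed levels of the fibroblast and tendon markers were 189 to 392 CPM in sedentary libraries, 299 to 628 CPM in trained libraries 1, 3, 4 and 5 and 216 CPM in library 2. Those of the macrophage markers were 55.5 to 219.9 CPM in sedentary libraries, 156 to 369 CPM in trained libraries 1, 3, 4 and 5 and 386 CPM in library 2. Summed levels of the adipocyte markers were 226 to 472 CPM in sedentary libraries, 227 to 1095 CPM in trained libraries 1, 3, 4 and 5 and 173 CPM in library 2, and those of the erythroid markers 370.2 to 864 CPM in sedentary libraries, 572 to 2050.2 CPM in trained libraries 1, 3, 4 and 5 and 514 CPM in library 2. Of the genes on these 4 lists Lep, leptin, was the only one at 0 in a library, library 2. Of 6 neutrophil markers S100a9 and of 7 T and B cell markers Cd3e were the only ones to pass the filter. In whole muscle, more cells of a type and more RNA per cell cannot be told apart, and the part of these cell types in the collagen values was not tested.

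**Figure D3:**
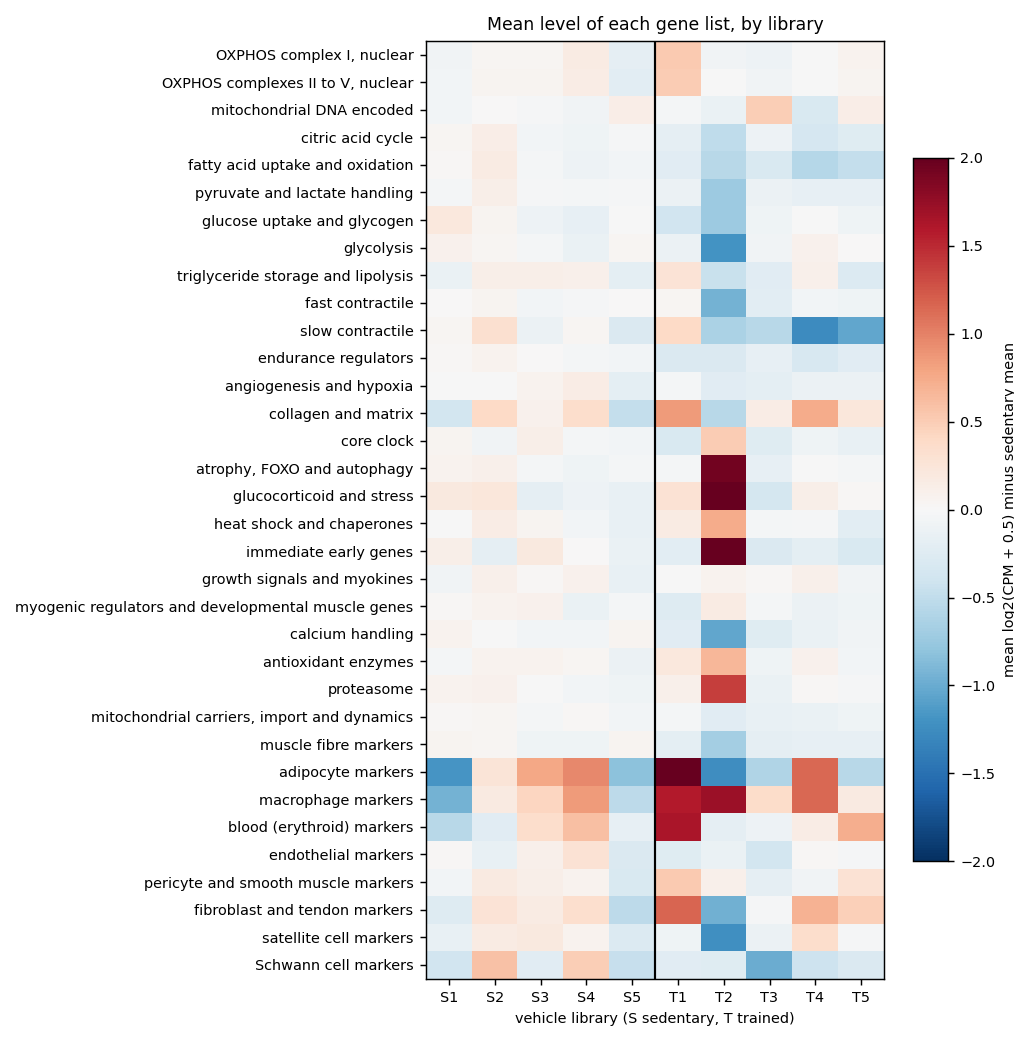
Mean log2(CPM + 0.5) of each gene list in each of the 10 vehicle libraries minus its mean over the 5 sedentary libraries (colour, limited to 2 in either direction). Columns S1 to S5 are sedentary and T1 to T5 trained. Library T2 stands apart in the atrophy, glucocorticoid and immediate early lists, and T1 in the adipocyte, blood and respiratory chain lists, while the fatty acid list is below the sedentary mean in all 5 trained libraries.

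C7, complement component 7, which is made by stromal cells, had the smallest p among the genes that were higher in every trained library. It measured 9.44, 16.2, 10.9, 21.9 and 10.02 CPM in sedentary libraries and 36.2, 25.5, 50.5 and 22.5 CPM in trained libraries 1, 3, 4 and 5, with 23.2 CPM in library 2. All trained values, library 2 included, were above all sedentary values under both scalings, with a log2 difference of 1.33 with SE 0.25 without library 2 (edgeR adjusted p = 0.205) and of 1.24 with SE 0.25 with it. Tnmd, a marker of tendon cells, was at 2.17, 2.20, 3.08, 1.91 and 1.22 CPM in sedentary libraries and 9.28, 2.52, 5.41 and 4.69 CPM in trained libraries 1, 3, 4 and 5, and at 0.132 CPM in library 2. Its log2 difference was 1.38 (SE 0.31) without library 2, and library 3 lay within the sedentary range.

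Macrophage genes gave log2 differences without library 2 of 1.01 for Adgre1, the F4/80 antigen, 0.86 for Csf1r, the receptor for the growth factor CSF-1, and 0.88 for Mrc1, the mannose receptor of resident macrophages. Their SEs were 0.50, 0.39 and 0.39. Adipoq, the hormone adiponectin, measured 3.25, 14.8, 21.7, 25.3 and 5.13 CPM in sedentary and 83.8, 7.20, 38.5 and 6.35 CPM in trained libraries 1, 3, 4 and 5, with 3.63 CPM in library 2. Trained library 1 was far above the others. Hbb-bs, a chain of adult haemoglobin, was likewise highest in trained library 1, at 1349 CPM, against 211 to 547 CPM in sedentary libraries. Trained library 1 was thus the highest of the 5 in slow contractile, respiratory chain, collagen, adipocyte and erythroid genes, and the part of this in the results that rest on it was not tested.

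Clock genes mostly measured lower in trained vehicle muscle once library 2 was left out, though Arntl itself lay level. It measured 7.43, 6.39, 6.53, 7.93 and 5.68 CPM in sedentary libraries and 6.40, 6.40, 6.32 and 6.68 CPM in trained libraries 1, 3, 4 and 5, and 132 CPM in library 2. The 4 trained libraries lay inside the sedentary range, whereas library 2 was over 10-fold above every other vehicle library. The difference in mean log2(CPM + 1) was -0.06 without library 2 (exact permutation test, two-sided, p = 0.508, where the smallest this design allows is 0.0159) and 0.78 with it (exact permutation test, two-sided, p = 0.754, smallest possible 0.00794). Over the 19 tested genes of the clock list the median log2 difference was -0.17 without library 2, with 16 negative and 4 at an unadjusted p under 0.05, all lower, where 4.95% of all genes were. In 2, Cry2 and Tef, the groups did not overlap on CPM, where 4.35% of all genes were lower without overlap, and in neither after TMM scaling. With library 2 the median was 0.07 and 10 of the 19 were positive. Of the 19, 3 were higher and 1 lower at an unadjusted p under 0.05, where 10.5% and 4.75% of all genes were.

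Per2, a repressor of the clock, was at 44.03 ± 3.00 CPM (SD, n = 5) in sedentary and 38.2 ± 6.23 CPM (SD, n = 4) in trained libraries without library 2, a log2 difference of -0.18 (SE 0.10). Dbp, a transcription factor driven directly by BMAL1 and CLOCK, measured 120.3, 133, 155, 122 and 142 CPM in sedentary and 110.0, 103, 129 and 125 CPM in trained libraries 1, 3, 4 and 5, but 5.48 CPM in library 2. Tef, of the same family, and the repressors Cry2, Bhlhe40 and Ciart were at -0.19 (SE 0.09), -0.24 (SE 0.08), -0.31 (SE 0.13) and -0.69 (SE 0.28) without library 2, and Cry2 and Bhlhe40 were at 1.58 and 0.07 with it. Library 2 was high in Cry2, at 777 CPM, and in Nr1d1, the receptor REV-ERBα, at 292 CPM, where the other 4 trained libraries had means of 60.5 and 66.4 CPM.

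The genes on which library 2 departs most were chosen for that departure and are a description. Of 14359 genes, 1485 were over 2-fold higher in it than in the mean of the other 4 trained libraries and 2869 over 2-fold lower. The metallothioneins Mt2 and Mt1, which bind zinc and copper, measured 1159.9 and 1674 CPM in library 2 and means of 6.79 and 14.1 CPM in the other 4. Slc39a14, a zinc and iron importer, was at 824 against 15.1 CPM, the cell cycle inhibitor Cdkn1a at 801 against 9.46 CPM and Sesn1, a stress-inducible sestrin, at 796 against 20.9 CPM. At the other end Mylk4, a kinase gene of striated muscle, was at 50.3 against 3041 CPM, and Tmem233, Nrep and Gdap1 were below 5 CPM in library 2 and had means between 59.1 and 271 CPM in the other 4.

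Several gene lists were higher with this library and level or lower without it. The ubiquitin ligase genes Trim63 and Fbxo32, which mark muscle wasting, measured 6307 and 3022 CPM in it, against 325 ± 26.2 CPM (SD, n = 4) and 365 ± 39.3 CPM (SD, n = 4) in the other trained libraries and 335 ± 79.00 CPM (SD, n = 5) and 379.9 ± 81.7 CPM (SD, n = 5) in sedentary ones. The median of the 20 atrophy genes was 0.84 with library 2 and -0.03 without it. Corresponding medians were 0.98 and 0.03 for 19 glucocorticoid and stress genes, 0.77 and -0.22 for 21 immediate early genes, and 0.45 and -0.004 for 31 proteasome genes. Fkbp5, a glucocorticoid-induced chaperone partner, was an exception in part, since it measured 46.3, 40.5, 35.5, 39.4 and 40.1 CPM in sedentary and 57.3, 48.5, 51.8 and 61.5 CPM in trained libraries 1, 3, 4 and 5, with 186 CPM in library 2. All trained libraries were above all sedentary ones under both scalings, with a log2 difference of 0.47 (SE 0.17) without library 2. Btg2 and Nr4a3, immediate early genes, were lower in each of the other 4 trained libraries than in any sedentary one under both scalings, with log2 differences of -0.69 (SE 0.21) and -1.40 (SE 0.53) without library 2. With it these were 2.33 and 3.32, from 500.2 and 403 CPM in it. Without library 2, 14 of the 21 immediate early genes had a negative difference. Of these genes 4 were lower and 0 higher at an unadjusted p under 0.05, where 4.95% and 8.06% of all genes were.

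Foxo6os (ENSMUSG00000084929), a transcript named for the strand opposite to the Foxo6 gene, had the smallest p of the whole table without library 2. It measured 12.99, 11.4, 12.9, 13.4 and 12.2 CPM in sedentary libraries and 6.62, 7.44, 6.60 and 6.74 CPM in trained libraries 1, 3, 4 and 5, with 0.528 CPM in library 2. No trained library reached the sedentary range under either scaling, and trained libraries 1, 3, 4 and 5 agreed closely, with a log2 difference of -0.84 with SE 0.13 without library 2 (edgeR adjusted p = 0.0612) and of -1.13 with SE 0.35 with it. It passed the threshold under 6 of the alternatives without library 2 that are counted at the end. Whether counting used strand is not given in the sources used here, so reads from the opposite strand may be in its count.

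Dusp18, a dual specificity phosphatase, measured 28.4, 39.98, 36.3, 28.7 and 27.4 CPM in sedentary libraries and 16.9, 20.2, 13.9 and 13.6 CPM in trained libraries 1, 3, 4 and 5, with 11.6 CPM in library 2. It was lower in every trained library under both scalings, with a log2 difference of -0.95 with SE 0.18 without library 2 (edgeR adjusted p = 0.205) and of -1.02 with SE 0.18 with it. Hpn, the serine protease hepsin, Castor2, a relative of the arginine sensor of mTORC1, and Pcbp4, an RNA-binding protein, were at -0.60 (SE 0.14), -0.44 (SE 0.10) and -0.31 (SE 0.07), each lower in all 5 trained libraries under both scalings. Tmem86a, which encodes a lysoplasmalogenase of muscle and fat, was at -0.60 (SE 0.13) without library 2, while library 2, at 11.6 CPM, lay within the sedentary range of 8.86 to 11.8 CPM.

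On the higher side without library 2 stood Rftn2, a lipid raft protein, at 1.19 (SE 0.23), Prkcd, protein kinase C delta, at 0.46 (SE 0.11), St3gal1, a sialyltransferase, at 0.37 (SE 0.09), Stbd1, which binds glycogen, at 0.46 (SE 0.12), and Jpt1, a microtubule-associated protein, at 0.42 (SE 0.12). Each of these 5 was above every sedentary library in trained libraries 1, 3, 4 and 5 under both scalings and not in library 2. Pir, the iron-binding protein pirin, was higher in all 5 trained libraries, at 0.46 (SE 0.18).

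The training difference in vehicle muscle was set beside the same difference in muscle labelled knockout, where the trained libraries 1 and 4, and 3 and 5, agreed within sampling noise and each pair was counted as 1 sample, which left n = 3. The ratio of the spread of high to that of low counts, in units of counting noise, was 1.28 and 0.857 in these pairs and 2.31 or more in every other pair of the series. The groups of the 2 genotypes share no library, but they share the estimate of spread, and all values are without vehicle-trained library 2. In muscle labelled knockout 121 genes (0.843%) passed an adjusted p under 0.05 (edgeR), 100 (0.696%) higher and 21 (0.146%) lower, and with vehicle-trained library 2 in the fit 0 did. The difference between the genotypes' training responses passed for 0 genes (edgeR, smallest adjusted p = 0.212), with 775 genes (5.4%) more positive in vehicle and 868 (6.04%) more negative at an unadjusted p under 0.05. DESeq2 called 87 genes for that difference and limma voom with sample quality weights called 1162, so this count depends on the tool.

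Medians of the fatty acid list were -0.37 in vehicle and 0.14 in muscle labelled knockout, where 21 of 26 genes were positive. The median of the gene-wise differences between genotypes was -0.52, and 25 of 26 were negative. In 20 the unadjusted p was under 0.05, where 5.4% of all genes were more positive and 6.04% more negative at that level. For Hadhb the training differences were -0.51 in vehicle and 0.13 in knockout-labelled muscle, and they differed by -0.64 (95% interval -1.07 to -0.22, edgeR adjusted p = 0.276). Slc27a1 stood at -0.51 in vehicle and 0.18 in knockout-labelled muscle, a difference of -0.69 (95% interval -1.13 to -0.26, edgeR adjusted p = 0.262), and Ldhb at -0.79 in vehicle and 0.33 in knockout-labelled muscle, a difference of -1.12 (95% interval -1.84 to -0.39, edgeR adjusted p = 0.266). The interval of each of these 3 lies on one side of 0 gene by gene, and none passed after adjustment. Hadhb and Slc27a1 are named for a small p in the vehicle training comparison. That comparison is part of this difference, so their intervals are no separate evidence. The same holds, here and below, for the gene-wise counts of the fatty acid, slow contractile and collagen lists, which already differed in vehicle muscle. Members of a list are also not replicates of each other. The first 3 genes of the fatty acid list, Cpt1b, Acadvl and Cd36, differed by -0.39 (95% interval -0.80 to 0.01), -0.50 (-0.96 to -0.05) and -0.25 (-0.57 to 0.08).

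The respiratory chain lists had medians of 0.20 and 0.20 in vehicle and 0.63 and 0.63 in muscle labelled knockout. In the latter, 16 of 37 complex I genes and 15 of 41 genes of complexes II to V passed an adjusted p under 0.05 (edgeR). All of them were higher, where 0.696% of all genes passed and were higher. The 3 trained samples labelled knockout were not alike. Over genes of high counts, trained library 1 labelled knockout differed from the sedentary libraries labelled knockout by 7.16 to 18.9 units of counting noise. From trained libraries 2 and 3 labelled knockout it differed by 65.8 and 41.6. How far the respiratory chain values rest on single trained samples was not tested. The gene-wise differences between genotypes were negative for all 37 and all 41, with medians of -0.50 and -0.46. Of each list 20 were at an unadjusted p under 0.05, where 6.04% of all genes were more negative at that level. Slow contractile genes were at -0.43 in vehicle and 0.38 in muscle labelled knockout, with 13 of 14 gene-wise differences negative. In 7 the unadjusted p was under 0.05, where 5.4% of all genes were more positive and 6.04% more negative. The collagen list was at 0.53 and -0.30, with 28 of 28 gene-wise differences positive. Of these 21 were at an unadjusted p under 0.05, where 5.4% of all genes were more positive, and 0 passed after adjustment. Adipocyte and erythroid markers were positive in both, at 1.14 and 1.22 and at 0.68 and 0.99, and macrophage markers were at 0.88 and 0.08. Clock genes were at -0.17 and -0.14.

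**Figure D4:**
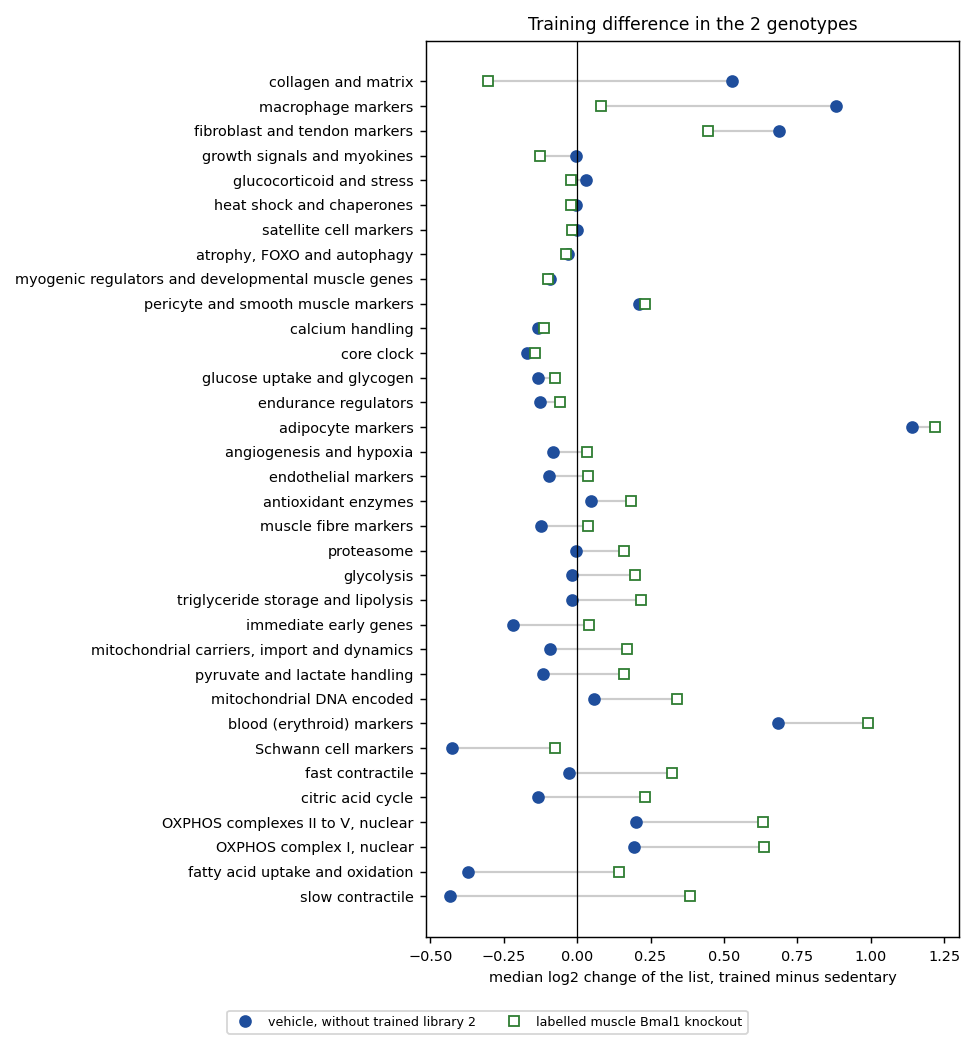
Median log2 difference between trained and sedentary muscle (horizontal axis, edgeR) for each gene list, in vehicle muscle without trained library 2 (filled circles) and in muscle labelled knockout (open squares). Lists are ordered by the gap between the genotypes. The slow contractile and fatty acid lists lie at -0.43 and -0.37 in vehicle and at 0.38 and 0.14 in muscle labelled knockout, and the collagen list lies at 0.53 and -0.30.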

How the data were processed

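The authors' deposited table holds estimated counts per gene for 20 libraries. Of its values 72.0% are whole, so they were rounded before count tests. Per the submitters' processing notes, STAR 2.7.8a, Partek and DESeq2 were used, with the builds mm10 and GRCm39. The counting step, annotation and strandedness are not given in the sources used here, so no coordinates are printed. No gene sums to under 10 counts over the table.

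CPM was computed from the deposited counts by column sum. Genes at 1 CPM or more in at least 5 libraries were tested with edgeR 4.0.16 (R 4.3.3), quasi-likelihood, TMM scaling, 4 group means over 18 samples (17 without trained library 2), Benjamini-Hochberg threshold 0.05. Low values keep their zero in CPM, while the list scale, log2(CPM + 0.5), shrinks differences of low genes. Alternatives used DESeq2 1.42.0, limma 3.58.1, other filters, scalings and samples. The edgeR test was also run on simulated counts with a fixed spread, in a simpler setting of only the vehicle groups without library 2. That run does not show how small a difference the real fits could detect.

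Replicate numbers do not pair the libraries. Members, gene lists and tests were chosen with earlier results of these data known. Named genes are the first 3 of each list and its up to 3 smallest p-values, the up to 10 genes in each direction with the smallest p among those that do not overlap at 5 CPM or more, the 10 most deviant genes in each direction in library 2, and the clock genes. Other names are said to be chosen after their values were seen. A few genes that this rule names are not reported here.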

Additional observations from a re-analysis of the deposited data

Results flagged for a closer look

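Each group of 5 vehicle libraries was examined for a library far from the others, for the named genes on CPM and for the gene lists on the mean of log2(CPM + 0.5). A library was taken as far when its gap to the nearest other value, divided by the range of the group, was over 0.71. This was met in 68 of 316 such groups, where about 1 in 20 would be met for independent, normally distributed values. Many of the genes were named for a small p or for groups that do not overlap, and the lists hold some of the same genes. That rate is therefore only a rough guide. Trained library 2 was the far library in 48 of them. The genes chosen for standing apart in that library are not counted here.

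Trained library 2 stood above the other 4 trained libraries, whose range follows each value in CPM, in Ppargc1a (556, against 51.9 to 75.1), Ppard (84.6, against 22.7 to 27.6), Hif1a (55.2, against 27.8 to 34.7) and Egln3 (341, against 14.97 to 33.4). It stood equally apart in Pdk4 (638, against 175 to 270.4), Hk2 (1729, against 321 to 498), Pnpla2 (637, against 142 to 172) and Cd68 (28.3, against 1.85 to 8.27). The same held for Arntl (132, against 6.32 to 6.68), Clock (53.97, against 31.9 to 35.2), Cry2 (777, against 55.4 to 66.6) and Bhlhe40 (308, against 95.4 to 146). Further such genes were Ciart (11.9, against 3.75 to 4.63), Nr1d1 (292, against 61.1 to 69.5), Fkbp5 (186, against 48.5 to 61.5) and Tsc22d3 (891, against 256 to 430.1). Also far from the other 4 were Klf15 (436, against 36.98 to 42.4), Fbxo32 (3022, against 306 to 387), Trim63 (6307, against 290.4 to 345) and Foxo1 (376, against 42.4 to 49.8). It stood equally apart in Fos (42.1, against 2.09 to 4.61), Egr1 (202, against 6.03 to 9.52), Nr4a1 (359, against 101 to 174) and Btg2 (500.2, against 12.9 to 16.3). The same held for Fst (27.7, against 7.08 to 12.3), Irs2 (664, against 25.1 to 35.01), Hmox1 (108, against 12.1 to 20.1) and S100a9 (8.85, against 0.492 to 0.719). It stood below them in Cpt2 (24.6, against 41.96 to 47.1), Esrra (27.3, against 84.9 to 92.4), Dbp (5.48, against 103 to 129) and Foxo6os (0.528, against 6.60 to 7.44). It stood equally apart in Castor2 (22.4, against 53.1 to 58.5), Cacna1s (361, against 560.4 to 618), Gpam (37.7, against 136 to 175) and Pdk1 (26.2, against 46.3 to 51.9). The same held for Inhba (0.462, against 4.53 to 5.52) and Ldha (549, against 1500.2 to 1861).

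Among the gene lists, on the scale of mean log2(CPM + 0.5), trained library 2 was above the other 4 in core clock (6.12, against 5.31 to 5.53), atrophy, FOXO and autophagy (8.17, against 6.07 to 6.23), glucocorticoid and stress (8.73, against 5.27 to 5.91) and immediate early genes (5.90, against 3.31 to 3.42). It stood equally apart in proteasome (7.89, against 6.38 to 6.61). It was below them in pyruvate and lactate handling (6.35, against 6.92 to 6.97), glycolysis (8.17, against 9.25 to 9.44), fast contractile (11.17, against 11.91 to 12.17) and calcium handling (6.48, against 7.29 to 7.45). It stood equally apart in muscle fibre markers (11.84, against 12.32 to 12.37).

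Trained library 1 was above the other 4 in Myl2 (357 CPM, against 60.5 to 109.7), Atp5k (237 CPM, against 102 to 136) and Cox7b (1079.6 CPM, against 533 to 664), and above the other 4 in OXPHOS complex I, nuclear (7.59, against 6.97 to 7.15) and OXPHOS complexes II to V, nuclear (8.40, against 7.83 to 7.95) on the list scale. Trained library 3 was above the other 4 in Ogdh (507 CPM, against 379 to 410.5), and below the other 4 in Schwann cell markers (1.23, against 1.81 to 1.99) on the list scale. Sedentary library 2 was above the other 4 in Atp2a2 (424 CPM, against 236 to 273), Myh2 (2598 CPM, against 1694 to 1935), Idh2 (349.6 CPM, against 238 to 263), Perm1 (209 CPM, against 186 to 192), Ldhb (284 CPM, against 190.3 to 207), Dgat2 (95.9 CPM, against 56.9 to 63.8) and Ppara (18.4 CPM, against 8.68 to 11.3), and above the other 4 in pyruvate and lactate handling (7.21, against 7.05 to 7.07) on the list scale. Sedentary library 3 was above the other 4 in Stbd1 (40.4 CPM, against 32.3 to 34.5), and below the other 4 in Esrra (101 CPM, against 113 to 118). Sedentary library 4 was below the other 4 in Pnpla2 (161 CPM, against 189 to 199). Sedentary library 5 was above the other 4 in S100a9 (0.489 CPM, against 0.261 to 0.309), and below the other 4 in Jpt1 (25.2 CPM, against 28.04 to 29.2).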

How the results depend on the processing

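The count of genes past the threshold was 0 in most fits. With all 5 trained libraries it was 1 with limma voom and sample quality weights (Dusp18), and 0 to 1 when each library was left out in turn (Slc16a6, without trained library 5). Without library 2 it was 1 on column-sum scaling, 1 with limma-trend on log2(CPM + 1), 1 on log2(CPM + 0.1) and 1 with 20 libraries taken as separate, each time Foxo6os. It was 22 with DESeq2, 3 with voom weights (Dusp18, Egln3, Foxo6os), and 0 to 1 leaving out each further library (Slc16a6, without trained library 5). The difference between genotypes gave 29 genes with DESeq2 and 1211 with voom weights, and 87 and 1162 without library 2. Arntl reversed without library 2, from 0.775 to -0.0573, and spanned -0.0573 to 0.989 over left-out libraries. The cause of these changes was not tested.

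Same-numbered libraries had correlations of -0.371 to 0.144 and in 0 of 5 cases matched their own number best, so the numbers are not taken as pairs. With the replicate block, 0 genes passed with library 2 and 1 without it (C7), and 0 and 3 for the difference between genotypes (Emilin2, Fbn1, Fn1).

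Non-overlap on CPM gave 36 higher and 392 lower genes, and 80 and 625 without library 2. TMM scaling gave 115 and 159, and 245 and 238. Leaving out each library in turn gave 44 to 406 higher and 451 to 688 lower, and with library 2 out 96 to 793 and 714 to 1208. The fatty acid count moved from 12 to 6 and from 15 to 5 under TMM scaling, and spanned 12 to 17 and 15 to 23 over left-out libraries. The gene list counts were recomputed with column-sum scaling, with the vehicle groups alone and with left-out libraries, and were 0 after adjustment. They were not recomputed with DESeq2 or voom weights. List members that passed with DESeq2 without library 2 include Plin5, Egln3 and Tnmd, and Egln3 also passed with voom weights. For 138 named genes 5376 values were recomputed, 21 of them past the threshold and 152 of opposite sign.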

Other observations

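Genes of lipid synthesis did not share one direction in trained vehicle muscle. Fasn, fatty acid synthase, measured 12.8, 20.95, 30.4, 32.4 and 17.04 CPM in sedentary libraries and 75.4, 22.6, 60.1 and 21.5 CPM in trained libraries 1, 3, 4 and 5, with a log2 difference of 1.00 (SE 0.31) without library 2. Trained libraries 1 and 4 were above every sedentary library and libraries 3 and 5 within their range. The desaturase genes Scd1 and Scd2 and the lipogenic regulator Srebf1 were at 1.35 (SE 0.49), 0.62 (SE 0.16) and 0.33 (SE 0.11) (Scd1 and Srebf1 named after their values were seen). Gpam, the first enzyme of triglyceride assembly, and Dgat2, which carries out its last step, were at -0.48 (SE 0.16) and -0.39 (SE 0.23). The 19 genes of the triglyceride list had a median of -0.02, 9 of them positive, and 0 passed after adjustment. Fasn and Scd1 are also abundant in adipocytes, whose marker Adipoq was highest in the same libraries 1 and 4, and the part of adipocytes in these values was not tested.

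Calcium handling genes were mostly lower without library 2. Of 20 tested, 17 had a negative log2 difference, with a median of -0.13, and with library 2 the median was -0.31. Without it 4 were lower and 1 higher at an unadjusted p under 0.05, where 4.95% and 8.06% of all genes were, and 5 did not overlap on CPM (4.35% of all genes), 2 after TMM scaling (1.66%). Pln, phospholamban, which restrains the slow calcium pump, was at -0.72 (SE 0.28), Ryr1, the calcium release channel, at -0.34 (SE 0.14) and Cacna1s, its voltage sensor, at -0.22 (SE 0.10). Mrln, myoregulin, a small inhibitor of the fast calcium pump, was at 0.53 (SE 0.21).

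Of growth signals, Mstn, myostatin, and Igf1 were at 0.10 (SE 0.14) and 0.35 (SE 0.17) without library 2, Igf2 at 0.32 (SE 0.10) and Fndc5, the precursor of irisin, at -0.50 (SE 0.17). Antioxidant enzymes had a median of 0.05 without library 2 and 0.24 with it, with Gpx1, glutathione peroxidase 1, at 0.56 (SE 0.24) and Hmox1, haem oxygenase 1, at 0.37 (SE 0.16) without it. None of these passed after adjustment. Igf2, Gpx1 and Hmox1 overlapped between the groups.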
